A study of Mus musculus with 12 samples.

Results

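The interferon-inducible GTPases examined here were 10 genes taken by name from the 55401 genes measured: the guanylate-binding proteins Gbp2, Gbp3, Gbp4, Gbp5, Gbp7 and Gbp9, and the immunity-related GTPases Igtp, Irgm1, Irgm2 and Iigp1. They were compared between MLL-AF9 leukemia cells grown in 3 kinds of host mouse, as a readout of the interferon-gamma the cells had met. The cells were mouse bone marrow progenitors carrying the MLL-AF9 fusion together with GFP. They had been passed more than 10 times through non-irradiated mice, so that all libraries came from 1 leukemia line. Hosts were young adult female mice: wild-type (WT) C57BL/6J, Rag2-/- on the C57BL/6J background, which lack mature T and B cells and keep NK cells, and NSG, which are of NOD background and lack T, B and NK cells. RNA was taken from GFP+ cells of the bone marrow of moribund mice, with 4 biological replicates per host, giving 12 libraries. Values are TPM, a transcript level that is corrected for gene length and scaled to a common total per library, and the depth behind them is unknown.

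Interferon-gamma is made mainly by NK cells and T cells and binds the receptor chains Ifngr1 and Ifngr2. The kinases Jak1 and Jak2 then pass the signal to the gamma-activated site (GAS) in target genes, and Irf1 and many GTPase genes are induced. Type I interferons act on the interferon-stimulated response element (ISRE), and most of these GTPases answer to both routes. The guanylate-binding proteins are large GTPases that coat microbes and their vacuoles. Among the immunity-related GTPases, Irgm1, Irgm2 and Igtp (also called Irgm3) are regulators that keep effectors such as Iigp1 (Irga6) inactive on the cell's own membranes.

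The genes lie in a few clusters of the mouse genome (GENCODE M21 on GRCm38, the same assembly as mm10). Gbp5 (ENSMUSG00000105504, chr3:142493978-142522344), Gbp7 (ENSMUSG00000040253, chr3:142530342-142550149), Gbp3 (ENSMUSG00000028268, chr3:142560026-142573209) and Gbp2 (ENSMUSG00000028270, chr3:142620602-142638008) follow each other on the plus strand of chromosome 3. Gbp9 (ENSMUSG00000029298, chr5:105077630-105139539) and Gbp4 (ENSMUSG00000079363, chr5:105115767-105139586) overlap on the minus strand of chromosome 5. Igtp (ENSMUSG00000078853, chr11:58199556-58207591) and Irgm2 (ENSMUSG00000069874, chr11:58199618-58222782) overlap on the plus strand of chromosome 11, which also holds Irgm1 (ENSMUSG00000046879, chr11:48861968-48871683) on the minus strand. Iigp1 (ENSMUSG00000054072) is on chromosome 18.

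Because of these overlaps and of sequence likeness between copies, some reads could have been counted for a neighbour. Igtp and Irgm2 share 162 exon bases on the same strand, which is 8.01% of Igtp and 4.39% of Irgm2. Gbp7 shares 11.3% of its exon bases with the gene model Gm43802. Of the 50-base words in the transcripts, 12.7% in Gbp7, 11.8% in Igtp, 8.05% in Gbp9, 7.77% in Irgm2 and 7.70% in Gbp4 also occur in another gene. That share was 0.31% in Irgm1, 1.44% in Gbp5, 1.69% in Iigp1, 2.03% in Gbp2 and 3.75% in Gbp3. The levels of Gbp7, Igtp, Irgm2, Gbp9 and Gbp4 are therefore less certain than the others.

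Proximal promoters are shown because the matches sit within a short stretch before the RefSeq start, with ISRE matches in 7 genes and GAS matches in 4. The windows of Gbp5 and Irgm2 lie inside the GENCODE spans given above for these genes. RefSeq promoters (GRCm38.p6, 250 bases before to 50 after the start) were at hand for 7 of the 10 genes, in 8 promoters. Capitals mark matches to the core of the ISRE (GAAA and GAAA with any 2 bases between) or to the GAS letters TTCNNNGAA, on either strand. Windows are written 5′ to 3′ on the strand of the gene, those of Gbp2 and Irgm1 being kept to 30 bases since they lie in annotated exons.
Gbp5 (chr3:142496762-142496894, plus strand): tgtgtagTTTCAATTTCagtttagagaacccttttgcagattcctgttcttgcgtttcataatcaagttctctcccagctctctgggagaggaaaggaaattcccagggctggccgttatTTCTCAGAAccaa
Gbp7 (chr3:142530221-142530306, plus strand): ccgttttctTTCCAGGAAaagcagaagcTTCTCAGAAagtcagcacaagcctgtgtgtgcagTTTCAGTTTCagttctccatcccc
Gbp3 (chr3:142559954-142560019, plus strand): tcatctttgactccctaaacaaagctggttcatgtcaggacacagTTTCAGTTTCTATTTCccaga
Gbp2 (chr3:142620594-142620623, plus strand): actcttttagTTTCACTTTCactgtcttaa
Irgm1 (chr11:48871428-48871457, minus strand): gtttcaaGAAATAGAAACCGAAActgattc
Igtp (chr11:58199456-58199546, plus strand): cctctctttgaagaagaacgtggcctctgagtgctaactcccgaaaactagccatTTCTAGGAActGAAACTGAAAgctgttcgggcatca
Irgm2 (chr11:58214847-58214937, plus strand): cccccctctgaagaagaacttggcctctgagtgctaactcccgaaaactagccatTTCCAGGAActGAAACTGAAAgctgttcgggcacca

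All 7 genes had an ISRE match, in 7 of the 8 promoters, against 3.44% of 32851 RefSeq promoters of the same length. GAS matches were found in Gbp5, Gbp7, Igtp and Irgm2, against 8.3% of all promoters, and both motifs together occur in 0.454% of all promoters. A further GAS match of Gbp5, at -245 to -237, lies outside the window printed. Gbp3 and Irgm1 each carried 2 overlapping ISRE matches, which give the longer runs of capitals above. In Igtp and Irgm2, a GAS and an ISRE match lay next to each other, and the windows printed were identical at 85 of 91 bases (93.4%). A match of letters is a description and does not show that a factor is bound.

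**Figure D1:**
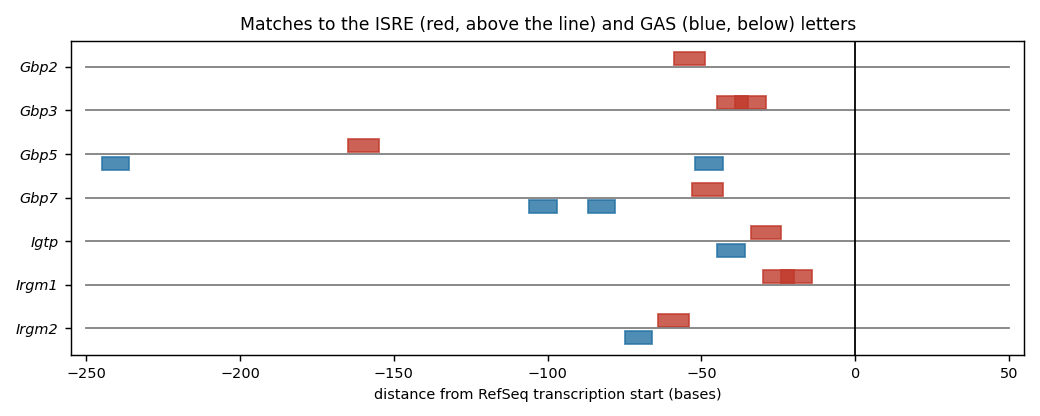
Positions of ISRE (red, above each line) and GAS (blue, below) letter matches in the RefSeq promoters of 7 GTPase genes; the horizontal axis is the distance from the annotated start in bases. ISRE matches lie between -165 (Gbp5) and -15 (Irgm1), and 4 of the genes also hold a GAS match.

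All 12 markers of the leukemia and its myeloid progenitor state were above 1 TPM on average, with 192 to 234 TPM of Hoxa9, 54.2 to 63.3 TPM of Meis1 and 78.3 to 105 TPM of Ptprc (CD45). Of these markers, Mpo fell by 2.13 and Ly6c2 fell by 0.91 on the log2 scale in Rag2-/- against WT (adjusted p = 0.0189 and 0.0461 by limma). Transcripts of 12 neutrophil markers, led by Chil3, summed to 1423 to 3177 TPM in WT, 1779 to 3139 TPM in NSG and 2321 to 10726 TPM in Rag2-/- libraries. Without Chil3, the other 11 summed to 210 to 337 TPM in WT and 327 to 357 TPM in NSG libraries. They summed to 2146, 1899 and 1994 TPM in Rag2-/- replicates 1, 2 and 3 and to 685 TPM in replicate 4. All 12 markers in Rag2-/- replicates 1 to 3, and 10 of 12 in replicate 4, were above every WT and NSG library. In bulk RNA, a change in the number of such cells and a change in RNA per cell cannot be told apart. Of 15 macrophage and dendritic cell markers, C1qc rose by 1.28 in Rag2-/- against WT (adjusted p = 0.0251), and the sums were 109 to 116 TPM in WT, 116 to 135 TPM in Rag2-/- and 69.8 to 127 TPM in NSG libraries. Of 8 B and plasma cell markers, Igkc fell by 2.75 in Rag2-/- against WT (adjusted p = 0.0348 by limma). Igkc was at 4.05, 0.745, 18.0 and 14.7 TPM in WT replicates 1 to 4. It was near 0 in both other hosts, at most 0.295 TPM in Rag2-/- and 0.676 TPM in NSG libraries. Ighm, the most abundant of that list, was at 122 to 215 TPM over the 12 libraries. These 4 calls were each lost in some of the fits that left out a library, where adjusted p reached 0.0648 for Mpo (without Rag2-/- replicate 2), 0.119 for Ly6c2 (without Rag2-/- replicate 2), 0.0911 for C1qc and 0.111 for Igkc (both without Rag2-/- replicate 3). Of 18 T and NK cell markers, Cd3e and Trac were listed at 0 in all 12 libraries and the other 16 were above 0 in some. Nkg7 had the highest levels of them, with a mean of 5.93 TPM in WT, 3.49 TPM in Rag2-/- and 5.19 TPM in NSG libraries, and the other 17 stayed at or under 2.72 TPM. The full list summed to 5.68 to 8.75 TPM in WT, 7.06 to 15.6 TPM in Rag2-/- and 2.81 to 9.08 TPM in NSG libraries. These sums overlapped between the hosts. Without Nkg7 the list summed to 0.476 to 2.04 TPM in WT, 4.29 to 10.7 TPM in Rag2-/- and 1.53 to 3.22 TPM in NSG libraries.

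MLL-AF9 cells expressed 6 of the GTPases at a high level in all hosts. By mean TPM over the 12 libraries, Gbp3 came first (103), followed by Gbp7 (58.3), Irgm1 (57.6), Igtp (53.9), Irgm2 (45.7), Gbp2 (23.4), Gbp5 (4.83), Gbp9 (2.61), Iigp1 (0.832) and Gbp4 (0.152). Gbp7 was above Irgm1 in 6 of 12 libraries, so these neighbours in the order did not separate. Irgm1 was above Igtp in 11 libraries, and each other gene was above the next in all 12. The 10 genes together took 279 to 421 TPM of a library. The regulators Irgm1, Irgm2 and Igtp were thus each expressed at many times the level of the effector Iigp1. This contrast covers Iigp1 alone, since Gm12250 (Irgb10), from the other GTPases described below, had a mean of 60.3 TPM.

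In Rag2-/- against WT, Gbp3 had the largest log2 fold change of the GTPases tested (-0.44), followed by Gbp5 (-0.42), whereas Gbp5 came first against NSG. Gbp3 was at 96.6, 123, 117 and 127 TPM in WT replicates 1 to 4, at 79.3, 75.2, 79.3 and 108 TPM in Rag2-/- replicates, and at 108, 128, 91.4 and 98.0 TPM in NSG replicates. Rag2-/- replicates 1 to 3 lay below all other libraries, and replicate 4 lay within the range of the WT and NSG libraries. Gbp2, which is anchored to membranes by prenylation, was at 20.9, 31.4, 25.6 and 22.7 TPM in WT, at 18.1, 21.3, 16.8 and 28.3 TPM in Rag2-/- and at 23.5, 28.8, 22.5 and 21.3 TPM in NSG cells. Its hosts overlapped, with the lowest values in Rag2-/- replicates 1 and 3 and the highest in WT replicate 2.

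Gbp5, known to promote assembly of the NLRP3 inflammasome, was at 3.96, 5.23, 4.78 and 8.06 TPM in WT, at 3.51, 3.78, 3.05 and 4.80 TPM in Rag2-/- and at 5.15, 7.40, 3.06 and 5.15 TPM in NSG cells. Rag2-/- replicate 3 and NSG replicate 3 were the lowest, and the 3 hosts overlapped. Gbp7 was at 48.0, 68.4, 56.5 and 60.4 TPM in WT, at 47.0, 57.2, 52.7 and 70.4 TPM in Rag2-/- and at 65.2, 65.5, 55.4 and 53.3 TPM in NSG cells. Its highest and lowest libraries were both from Rag2-/- mice. Gbp9 was at 1.75, 2.45, 3.29 and 2.37 TPM in WT, at 1.69, 2.25, 1.94 and 4.00 TPM in Rag2-/- and at 3.44, 2.95, 1.74 and 3.44 TPM in NSG cells, again with the extremes in Rag2-/- mice. Gbp4 stayed between 0.0273 and 0.282 TPM in all libraries and was not tested.

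The regulators of the immunity-related family followed a common course. Irgm1 was at 52.9, 66.0, 57.8 and 65.6 TPM in WT, at 43.0, 58.4, 45.4 and 59.8 TPM in Rag2-/- and at 64.1, 73.5, 45.6 and 58.7 TPM in NSG cells. Igtp was at 45.6, 64.6, 54.5 and 62.9 TPM in WT, at 46.8, 53.6, 42.9 and 56.3 TPM in Rag2-/- and at 63.1, 58.8, 44.3 and 53.9 TPM in NSG cells. For both genes, Rag2-/- replicates 1 and 3 and NSG replicate 3 were among the lowest libraries, and the hosts overlapped. Irgm2 was at 38.0, 52.7, 46.1 and 56.5 TPM in WT, at 39.3, 44.9, 39.1 and 50.6 TPM in Rag2-/- and at 50.2, 54.9, 28.9 and 47.5 TPM in NSG cells. NSG replicate 3 had the lowest level, below every Rag2-/- library. The effector Iigp1 was at 0.370, 0.817, 0.571 and 0.799 TPM in WT, at 0.586, 0.890, 0.491 and 0.900 TPM in Rag2-/- and at 1.24, 1.44, 1.21 and 0.672 TPM in NSG cells. NSG replicates 1 to 3 were above the other 9 libraries, but its mean was under the 1 TPM required for the test.

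**Figure D2:**
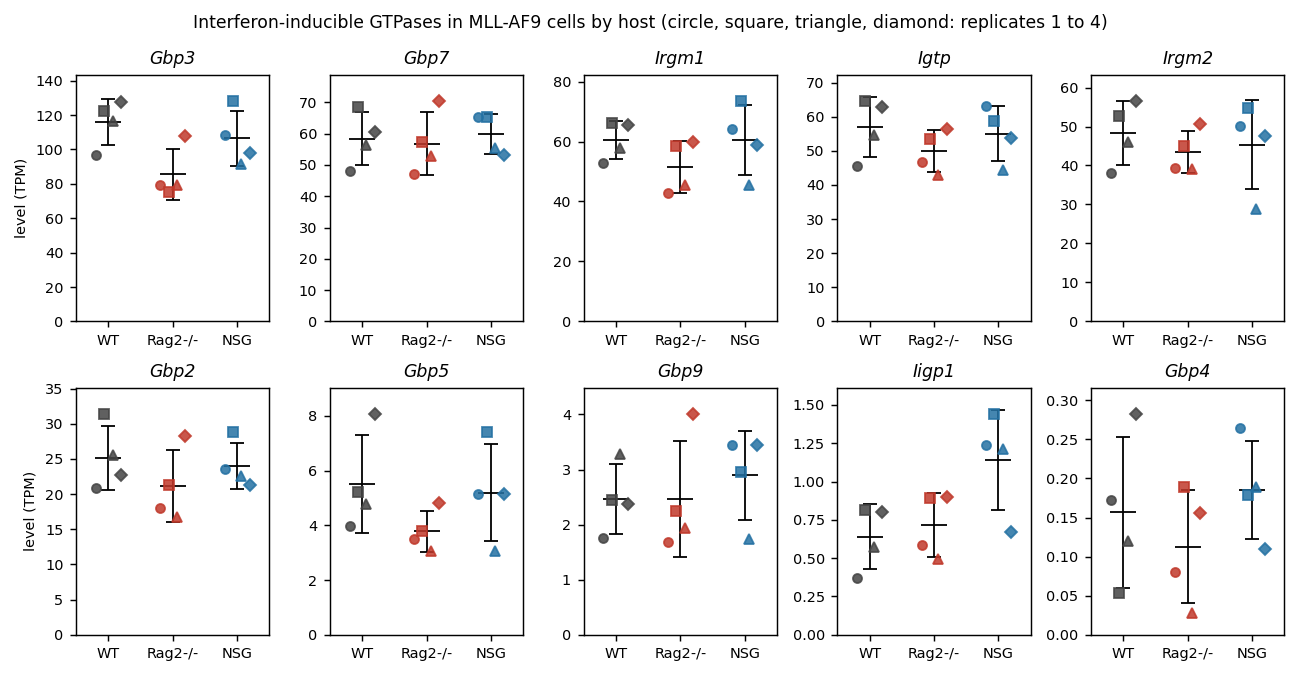
Levels in TPM (vertical axis, from 0, own scale per gene) of the 10 GTPases in WT, Rag2-/- and NSG hosts; circles, squares, triangles and diamonds are replicates 1 to 4, and bars give the mean ± SD (n = 4). The hosts overlap for every gene, and Gbp3 is between 75.2 and 79.3 TPM in Rag2-/- replicates 1 to 3.

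The first comparison asked whether the GTPases differed between cells from Rag2-/- mice, which keep NK cells, and from WT mice. None of the 8 genes tested passed the threshold (limma, adjusted p below 0.05 and a log2 fold change beyond 0.5), where 1.47% of the 15026 genes tested did (0.326% lower and 1.14% higher in Rag2-/-). All 8 log2 fold changes of TPM + 1 were below 0, as were 45.5% of all genes, with a median of -0.21 against 0.024 over all genes. The 8 genes moved together over the libraries (median r of 0.74 between pairs), so their signs are not 8 separate observations. Gbp3 had a log2 fold change of -0.44 (SE 0.13, 95% interval -0.73 to -0.16, adjusted p = 0.0847 by limma). Gbp5 was at -0.42 (SE 0.23, adjusted p = 0.333), and the other 6 were between -0.25 (Gbp2) and -0.02 (Gbp9) with adjusted p from 0.386 to 0.966. Only Gbp3 had an unadjusted p under 0.05, against 20.9% of all genes. None of the 8 had Rag2-/- libraries all below or all above WT, against 6.72% and 10.2% of all genes. The 95% intervals of Gbp2, Gbp3, Gbp5, Gbp9, Irgm1 and Irgm2 reached beyond the limit of 0.5 on the lower side. Falls of that size were thus not shut out for these genes.

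Gbp3, not called with all 12 libraries, passed in 1 of the 12 fits that left out a library. Over those fits its log2 fold change ran from -0.56 to -0.39, and adjusted p reached 0.220 (limma). Without Rag2-/- replicate 4, Gbp3 fell by 0.56 on the log2 scale (adjusted p = 0.0304 by limma), and the median of the 8 genes was -0.28. Without WT replicate 2, that median was -0.13. Gbp3 also passed, at -0.58 (adjusted p = 0.0425 by limma), in a model with an added term. That term set Rag2-/- replicates 3 and 4 with NSG replicates 1 and 2 apart from the rest. This alternative was added with the data in view. No other GTPase passed under any setting tried. For Gbp7 and Gbp9 the direction turned when single libraries were left out, with values of -0.15 to 0.04 and -0.22 to 0.08.

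Against NSG mice, which lack NK cells as well, the same Rag2-/- libraries gave 0 called GTPases, where 0.213% of all genes were called (0.02% lower and 0.193% higher in Rag2-/-). All 8 log2 fold changes were again below 0, against 46.6% of all genes, and their median was -0.19 against 0.013. The comparison shares the Rag2-/- libraries with the first, so the signs are not a second line of evidence. Gbp5 was at -0.34 (SE 0.23, adjusted p = 0.600 by limma) and Gbp3 at -0.32 (SE 0.13, 95% interval -0.60 to -0.03, adjusted p = 0.329). The other 6 lay between -0.22 (Irgm1) and -0.03 (Irgm2), with adjusted p from 0.586 to 0.970. Gbp3 was the 1 gene with an unadjusted p under 0.05, against 12.6% of all genes. Without Rag2-/- replicate 4 the median was -0.32, and without Rag2-/- replicate 3 it was -0.11. Non-overlapping hosts were found for 0 of the 8, against 2.25% of all genes with Rag2-/- lower and 4.34% with Rag2-/- higher. The 95% intervals of Gbp2, Gbp3, Gbp5, Gbp9 and Irgm1 reached beyond the limit of 0.5 on the lower side. Falls of that size were thus not shut out here either.

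Between NSG and WT mice, which differ in strain as well as in T, B and NK cells, 0 of 8 GTPases were called, and the background was 0% of all genes. At an unadjusted p under 0.05 there were 0 GTPases and 9.16% of all genes. Log2 fold changes ran from -0.12 (Gbp3) to 0.16 (Gbp9), 6 below and 2 above 0 (48.5% of all genes were below 0), with a median of -0.05 and adjusted p from 0.828 to 0.983 by limma. The 95% intervals reached from -0.41 to 0.16 for Gbp3, from -0.33 to 0.30 for Irgm1 and from -0.36 to 0.68 for Gbp9. None of the 8 had hosts without overlap, against 2.38% of all genes with NSG lower and 2.21% with NSG higher. Differences of the size of the 0.5 limit were thus not shut out for Gbp5, Gbp9 and Irgm2, whose intervals reached beyond it.

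**Figure D3:**
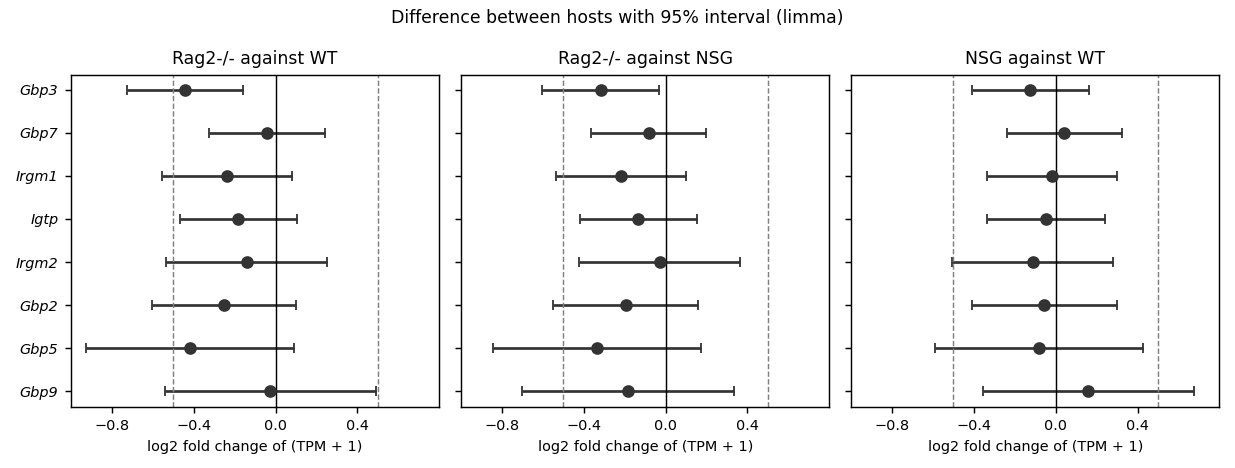
Log2 fold change of TPM + 1 (horizontal axis) with its 95% interval for the 8 GTPases tested, in 3 comparisons of hosts (4 libraries each, limma); dashed lines mark the limit of 0.5. All 8 points lie below 0 for Rag2-/- against WT and against NSG, and only the intervals of Gbp3 leave out 0.

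For 7 of the 8 GTPases tested, more of the variance lay between mice of the same host than between hosts, Gbp3 being the exception. The host accounted for 51.7% of the variance of log2(TPM + 1) for Gbp3, 26.3% for Gbp5, 22.1% for Irgm1 and 19.3% for Gbp2, and for 3.54% to 15.5% for the other 4. The median over all genes was 23.3%. Within hosts, the SD of the GTPases was 0.20 to 0.35 on the log2 scale, each above the median of 0.17 over all genes.

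The 8 genes moved together from library to library. Over the 28 pairs, Pearson's r across the 12 libraries was 0.53 to 0.90 (median 0.74), and after removing the host means it was 0.47 to 0.92 (median 0.74). These are descriptions, since the genes share libraries and, for some, sequence. WT replicate 1 was the lowest of its host for 8 of 8 genes, and Rag2-/- replicate 4 the highest of its host for 8 of 8. NSG replicate 3 was the lowest for 6 and NSG replicate 2 the highest for 6. Irgm1 followed the mean of the other 7 most closely (r = 0.93) and Gbp9 least (r = 0.69).

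The mean Z score of the 8 genes was -0.78, 0.91, 0.31 and 0.78 in WT replicates 1 to 4. It was -1.20, -0.37, -1.18 and 0.74 in Rag2-/- replicates and 0.65, 1.08, -1.04 and 0.088 in NSG replicates. Rag2-/- replicate 4 thus had rank 4 of the 12 libraries, whereas replicates 1, 2 and 3 had ranks 12, 8 and 11. Neutrophil marker transcripts were highest in Rag2-/- replicates 1 to 3 and lower in replicate 4, where they still exceeded the WT and NSG libraries for 10 of 12 markers. In Rag2-/- against WT, 10 of the 12 neutrophil markers were called higher, against 1.14% of all genes, and 0 had a log2 fold change below 0. Over the 12 libraries, the median r of the 12 neutrophil markers with the GTPase pattern was -0.53, and it was -0.18 for 9 macrophage and dendritic cell markers and 0.47 for 4 B and plasma cell markers. After removing the host means, these medians were -0.44, 0.20 and 0.39 in the same order. Without Chil3, the neutrophil markers summed to 337, 210, 302 and 314 TPM in WT replicates 1 to 4. In NSG replicates 1 to 4 they summed to 332, 336, 327 and 357 TPM. The part of these cells in the differences was not tested.

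The 5 genes outside the GTPases with the course closest to their mean were Oasl2, Eif2ak2, Trim34a, Rtp4 and Ifit1. Oasl2, a member of the oligoadenylate synthetase family, had r = 0.97 over 12 libraries, and Eif2ak2, the RNA-dependent kinase PKR, had r = 0.95. Trim34a (r = 0.94), Rtp4 (r = 0.93) and Ifit1 (r = 0.92) came next. Cxcl9 and Parp14, listed with the other interferon-gamma targets, had ranks 10 and 11 (both r = 0.92). Oasl2 was at 41.9, 58.2, 52.8 and 64.7 TPM in WT, at 27.0, 41.0, 32.6 and 63.8 TPM in Rag2-/- and at 57.5, 74.8, 32.0 and 50.3 TPM in NSG cells. Its low libraries were those of the GTPases, Rag2-/- replicates 1 and 3 and NSG replicate 3.

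**Figure D4:**
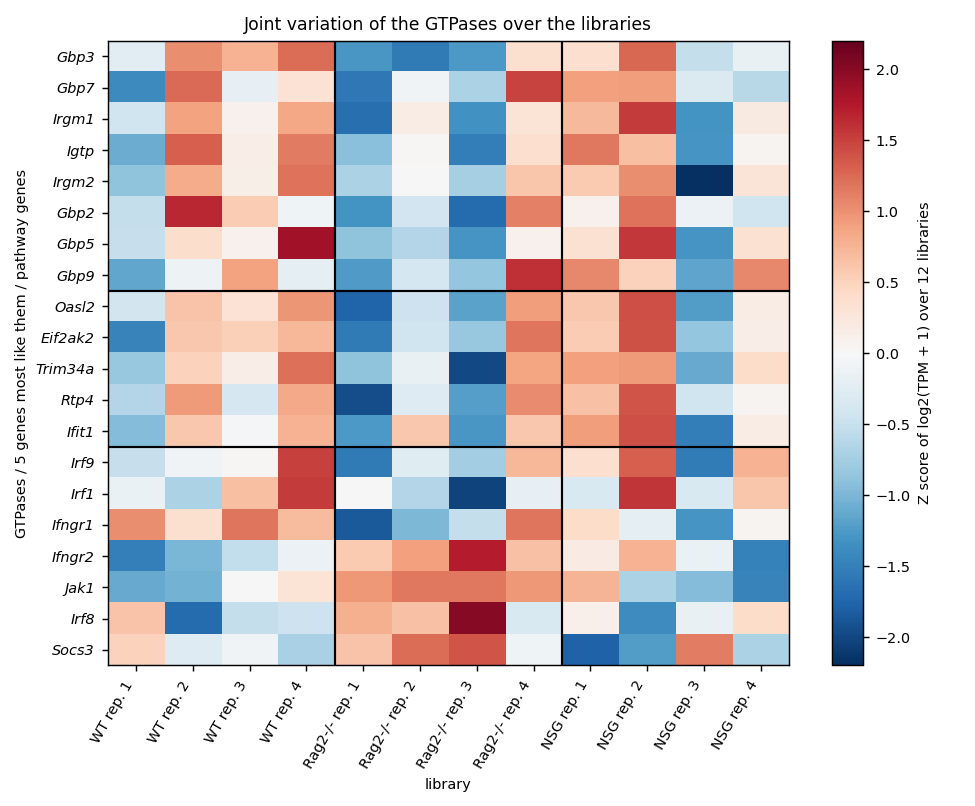
Z scores of log2(TPM + 1) over the 12 libraries (columns, by host) for the 8 GTPases tested, the 5 genes most like their mean and 7 genes of the interferon pathway (rows). Rag2-/- replicates 1 and 3 and NSG replicate 3 are blue through the upper 2 blocks, and Rag2-/- replicate 4 and NSG replicate 2 are red, palest for Gbp5 in Rag2-/- replicate 4.

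The receptor, the kinases and Irf1 upstream of the GTPases were expressed in every library. Ifng was listed at 0 in all 12 libraries, whereas the receptor chain genes Ifngr1 and Ifngr2 were at 581 to 771 TPM and 47.2 to 61.3 TPM. The kinase genes Jak1 and Jak2 were at 103 to 131 TPM and 40.5 to 54.2 TPM. The transcription factor gene Irf1 was at 45.7 to 61.4 TPM. Of the 18 genes of this list tested, 0 passed in any comparison, and the medians were 0.002 for Rag2-/- against WT, 0.018 against NSG and 0.001 for NSG against WT.

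Members of the signalling list followed the GTPases unequally. Pearson's r with the GTPase mean over 12 libraries was 0.91 for Batf2, a transcription factor induced by interferon-gamma, and 0.90 for Usp18, which restrains type I interferon signalling. It was -0.79 for Irf8, a factor of the monocyte lineage, and -0.82 for Socs3, a feedback inhibitor of cytokine signalling. Socs3 was at 20.4, 15.8, 16.8 and 13.7 TPM in WT, at 21.2, 25.6, 26.9 and 16.8 TPM in Rag2-/- and at 9.58, 11.5, 24.8 and 13.8 TPM in NSG cells. It was high where the GTPases were low, in Rag2-/- replicates 1 to 3 and NSG replicate 3.

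Of the 18 other interferon-inducible GTPases listed, 8 were tested and 0 passed in any comparison. The most abundant was Gm12250, which encodes Irgb10, at 43.3 to 81.4 TPM, followed by 9930111J21Rik2 at 12.7 to 30.5 TPM and Mx1 at 10.5 to 19.2 TPM. Their median log2 fold change was -0.09 in Rag2-/- against WT, -0.10 against NSG and 0.006 in NSG against WT. Their median r with the course of the GTPases under study was 0.83.

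Of 26 other interferon-gamma targets tested, 1 fell and 0 rose in Rag2-/- against WT, and 0 were called in the other comparisons. Ly6a, which encodes the surface antigen Sca-1, was at 26.8, 50.3, 40.8 and 53.5 TPM in WT, at 16.9, 20.1, 21.5 and 24.8 TPM in Rag2-/- and at 27.0, 37.5, 23.5 and 36.7 TPM in NSG cells. All Rag2-/- libraries were below all WT libraries, and Ly6a fell by 0.97 on the log2 scale (SE 0.21, adjusted p = 0.0338 by limma). That call was lost without the low-level filter (adjusted p = 0.0708), without the trend (adjusted p = 0.0551) and in 6 of the 12 fits that left out a library, where adjusted p reached 0.112 (without WT replicate 2). The median of the list was -0.22 against WT and -0.17 against NSG, with 17 and 15 of 26 genes below 0. Tap2 fell by 0.27 against WT (adjusted p = 0.0477 by limma) and missed only the fold limit. So did the gene with the lowest adjusted p against NSG (0.0462). The most abundant genes of the list were B2m at 2918 to 6802 TPM, H2-D1 at 952 to 1907 TPM and H2-K1 at 630 to 1418 TPM. They form and carry MHC class I. Against WT they were at -0.19, -0.29 and -0.40 (adjusted p = 0.634, 0.205 and 0.134 by limma).

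Of 23 type I interferon targets tested, 1 fell and 0 rose in Rag2-/- against WT, and 0 were called in the other comparisons. Ifi27 was at 343, 349, 325 and 321 TPM in WT, at 224, 251, 184 and 258 TPM in Rag2-/- and at 306, 301, 319 and 376 TPM in NSG cells. The Rag2-/- libraries were below all others, and Ifi27 fell by 0.56 against WT (SE 0.10, adjusted p = 0.0186 by limma). The call was lost when Rag2-/- replicates 3 and 4 with NSG replicates 1 and 2 were set apart by a term in the model (-0.48), without WT replicate 2 (adjusted p = 0.0722) and without Rag2-/- replicate 3 (-0.45). Against NSG, Ifi27 was at -0.51 (adjusted p = 0.0609), and it passed without Rag2-/- replicate 4 (-0.57, adjusted p = 0.0309). In both comparisons of Rag2-/- cells, 21 of the 23 log2 fold changes were below 0, against 45.5% (WT) and 46.6% (NSG) of all genes. The medians were -0.22 against WT and -0.18 against NSG, beside -0.21 and -0.19 for the GTPases and 0.024 and 0.013 over all genes. Both comparisons used the same Rag2-/- libraries, so the signs are not 2 lines of evidence. The genes of the list also share these libraries, so their signs are not separate observations. Bst2, a surface protein that tethers virus particles, at 261 to 505 TPM, and Oas1a at 183 to 257 TPM were with Ifi27 the most abundant of the list. Its median r with the GTPase course was 0.82, compared with 0.53 for the other interferon-gamma targets. The range was 0.48 (Ifi27) to 0.97 (Oasl2) for the type I targets. It was -0.68 (Icam1) to 0.92 (Cxcl9) for the other interferon-gamma targets, so the upper ends were close.

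A further list held genes for proteins that prenylate the GTPases or act with them at vacuoles and in autophagy. Of 24 such genes tested, 0 passed in any comparison, with medians of 0.07, 0.08 and -0.008 in the same order, and their r with the GTPase mean was above 0 for 12 and below 0 for 12. It ran from -0.78 for Atg16l1 to 0.76 for Atg12, both of the autophagy conjugation machinery, with a median of 0.009. Gabarap, an autophagy protein of the Atg8 family, was at 318 to 414 TPM in all libraries. Pim1 was at 169 to 280 TPM and Gsdmd, the pore-forming gasdermin, at 159 to 211 TPM.

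**Figure D5:**
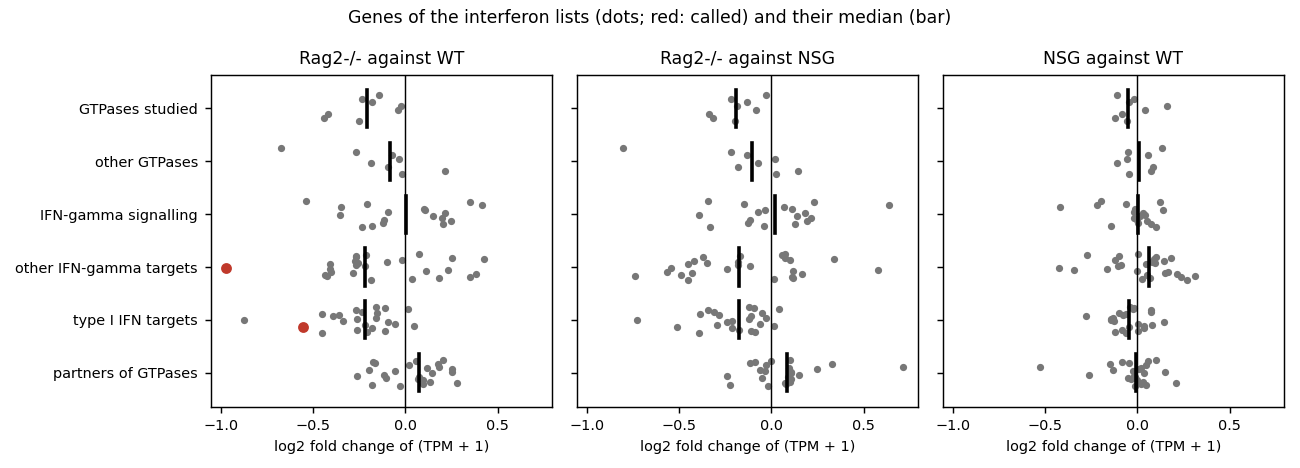
Log2 fold change of TPM + 1 (horizontal axis) of each tested gene in 6 lists, by comparison; black bars are list medians and red points are genes that passed the threshold. The GTPases studied have medians of -0.21, -0.19 and -0.05, and the 2 red points are Ly6a and Ifi27 in Rag2-/- against WT.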

How the data were processed

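RNA-seq of GFP+ MLL-AF9 cells from bone marrow was available for 12 libraries, grouped by the labels into WT, Rag2-/- and NSG hosts (4 each). Per the methods, the authors used HISAT2 on Galaxy for alignment to mm10, counted reads per gene and deposited TPM, 1 column per library. The counting tool, its strand setting and the annotation are not given in the sources used here. TPM keeps no read depth, so no counting interval is given. TPM were taken as log2(TPM + 1), 15026 genes averaging 1 TPM or more were fitted over all 12 libraries with limma 3.58.1 in R 4.3.3 (eBayes with trend), and p-values were adjusted by the Benjamini-Hochberg method over all tested genes in each comparison. Genes were called below an adjusted p of 0.05 when the log2 fold change also exceeded 0.5 in size. The fit was tested on simulated data. The 10 GTPases and the gene lists were chosen with earlier results of these data known. Named genes are the GTPases, called list genes, genes that name a pathway step, the 3 most abundant genes of a list and the 5 genes most like the mean Z score of the tested GTPases. Isg15, Batf2, Usp18, Socs3, Irf8, Nkg7, Chil3, Atg16l1, Atg12, Cxcl9, Parp14, Icam1 and Tap2 were chosen with their values in view. Alternatives comprised a pseudocount of 0.1, other filters, quantile normalization, median-ratio scaling, no trend, the 8 libraries alone, a replicate block, no fold limit, each library left out, and a split of the libraries. Sequences are from RefSeq (GRCm38.p6), and those of Gbp4, Gbp9 and Iigp1 were not used here. The result for 1 gene of the signalling list is not reported here. Python 3.11.15 with pandas 2.3.3, numpy 2.4.6 and matplotlib 3.10.9 was used besides.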

Additional observations from a re-analysis of the deposited data

Results flagged for a closer look

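Gbp3 in Rag2-/- replicate 4 lay apart from its group. At 108 TPM against 75.2 to 79.3 TPM in the other 3 Rag2-/- libraries, its gap to the nearest library was 0.873 of the range of the group, above Dixon's 95% critical value for 4 samples. It was 1 of 30 groups tested (10 genes in 3 hosts), of which 1.5 would pass by chance. In the same library, 11 neutrophil markers (those other than Chil3) summed to 685 TPM, below the 1899 to 2146 TPM of the other Rag2-/- libraries and above the 210 to 357 TPM of the WT and NSG libraries, and their part in the level of Gbp3 was not tested.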

How the results depend on the processing

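The count of GTPases called stayed at 0 in all 3 comparisons under the alternatives tried, except for Rag2-/- against WT, where it was 1 (Gbp3) with the split of libraries as a factor and 0 to 1 over the fits without 1 library (1 without Rag2-/- replicate 4). The count over all genes, 221 for Rag2-/- against WT, was 114 without the low-level filter, 355 with the 8 libraries alone, 420 without the fold limit, and 48 (without WT replicate 2) to 327 (without NSG replicate 3) with 1 library left out. For Rag2-/- against NSG, 32 genes became 14 with the pseudocount of 0.1, 7 without the filter, 19 after quantile normalization, 11 after median-ratio scaling, 18 without trend, 6 with the 8 libraries alone, 15 with the split, and, with 1 library left out, from 4 (Rag2-/- replicate 3 missing) to 90 (Rag2-/- replicate 4 missing). For NSG against WT, 0 became 2 without the filter and 0 to 2 with 1 library left out. The cause was not tested.

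Replicate numbers did not pair the libraries. Correlations were taken over the tested genes after the host mean of each gene was removed from log2(TPM + 1). Same-numbered libraries of different hosts then had correlations of -0.091 to 0.032. Of the 12 libraries, 0 correlated best with their own number. With the replicate block, 5 genes were called for Rag2-/- against NSG and 0 GTPases in any comparison.

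Signs near 0 turned when 1 library was left out. The ranges for Rag2-/- against WT were -0.15 to 0.044 (Gbp7) and -0.22 to 0.084 (Gbp9). For Rag2-/- against NSG they were -0.19 to 0.0017 (Gbp7) and -0.23 to 0.074 (Irgm2). For NSG against WT they were -0.14 to 0.053 (Gbp2), -0.24 to 0.11 (Gbp5), -0.045 to 0.12 (Gbp7), -0.15 to 0.050 (Igtp), -0.12 to 0.11 (Irgm1) and -0.22 to 0.085 (Irgm2), and with the split Gbp7 was at -0.080 and Gbp9 at -7.1e-05. The median over the GTPases ran from -0.32 to -0.13 for Rag2-/- against WT and from -0.32 to -0.11 against NSG over all settings. For NSG against WT it ran from -0.14 to 0.08 (without NSG replicate 3). At TPM near 0, as for Gbp4 and Iigp1, precision is limited by a depth that the values do not give.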

Other observations

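With genes at any level above 0 admitted to the fit, the 2 GTPases of low level could be fitted too. Iigp1 was at 0.38 in NSG against WT, -0.31 in Rag2-/- against NSG and 0.07 in Rag2-/- against WT, with adjusted p of 0.713, 0.610 and 0.899 by limma. Gbp4 was at 0.04, -0.09 and -0.05 in the same order, with adjusted p of 0.940, 0.741 and 0.789.

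Isg15, a ubiquitin-like interferon target chosen after its values were seen, was at 134, 238, 166 and 157 TPM in WT, at 86.2, 98.3, 65.7 and 129 TPM in Rag2-/- and at 134, 192, 125 and 172 TPM in NSG cells. All Rag2-/- libraries were below all WT libraries, and the log2 fold change of -0.88 had an adjusted p of 0.0506, just outside the threshold. Over the 12 fits that left out a library, it ran from -1.04 (adjusted p = 0.0262, without Rag2-/- replicate 4) to -0.71 (adjusted p = 0.142, without WT replicate 2), and it passed in 2 of the 12 and in 4 of 9 other settings.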
